A study of Homo sapiens with 12 samples.

Results

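Complex I of the respiratory chain (NADH:ubiquinone oxidoreductase) takes electrons from NADH, passes them to ubiquinone and pumps protons across the mitochondrial inner membrane. A matrix arm holds the flavin and the chain of iron-sulfur clusters, and a membrane arm holds the proton-pumping subunits. Most of its subunits, named NDUF, are made from nuclear genes, while the pumping core of the membrane arm is encoded by the MT-ND genes of mitochondrial DNA. In monocytes and macrophages it serves ATP synthesis and is also known as a source of reactive oxygen species during LPS responses.

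The nuclear complex I subunits were taken as the rows of the gene count table whose symbol begins with NDUFA, NDUFB, NDUFC, NDUFS or NDUFV followed only by digits, with at least 10 counts in each of the 12 libraries. Of the 58735 rows, 37 matched the name and 35 of these reached the minimum. The other two were NDUFV2, with 9 counts in EGCG-treated senEC replicate 2, and NDUFA7, with 7 counts in senEC replicate 5. The 35 subunits comprise 14 of the matrix arm, 20 of the membrane arm and NDUFA4, which carries the family name but is now assigned to complex IV. All but NDUFV2 of the nuclear core subunits, which carry out the electron transfer, were kept (6 genes). The acyl carrier protein NDUFAB1 does not follow the naming pattern and was not included.

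RNA-sequencing was performed on THP1 cells, an established human leukaemia line with monocyte character, used as wild type, in 4 groups of 3 libraries. THP1 cells (400000 per well) were kept alone (mono-culture) or across a transwell filter with 1 µm pores from 500000 endothelial cells (ECs) for 24 h in endothelial medium. The ECs were human umbilical vein cells that were not made senescent (control ECs), made senescent with etoposide, a topoisomerase inhibitor (senECs), or made senescent in the same way and then given EGCG, a catechin of green tea (EGCG-treated senECs). Every library, mono-culture included, comes from THP1 cells stimulated with LPS (100 ng/ml, 2 h) at the end of culture, and none from unstimulated cells. Replicates were numbered 1, 2 and 3 in mono-culture and control ECs, and 1, 2 and 5 in senECs and EGCG-treated senECs. The sample labels do not say that replicates were separate cultures, so the p-values measure the spread among these libraries. The questions put by the design were whether control ECs, senECs and EGCG-treated senECs left THP1 cells with different transcript levels.

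The libraries held 15439836 to 22092600 counts, of which 34695 to 51842 fell on the 35 subunits. A single library, senEC replicate 5, stood apart: its TMM scaling factor was 0.912 against 0.957 to 1.04 in the other 11, and cytosolic ribosomal protein genes took 5.95% of its counts against 4.03% to 4.92%. Most fold changes that involve the senEC group, and the counts of subunits drawn from them, are therefore also given without it. Monocyte markers were present in every group (11 of 12 averaged above 1 CPM, counts scaled to library size with TMM factors, and their sum was 2475 to 3585 CPM), although CD68 lay between 0.110 and 0.854 CPM. The 12 endothelial markers summed to 156 to 185 CPM in mono-culture, 149.6 to 178 with control ECs, 196 to 232 with senECs and 189 to 230.5 with EGCG-treated senECs. PECAM1, which leukocytes also express, accounted for 126 to 208 CPM of that sum and EGFL7 for 18.6 to 27.7 CPM. Of the other 10, CDH5 (0 to 0.0648 CPM) and MMRN1 (0 in all libraries) were lowest, VWF reached 0.401 to 2.22 CPM and ERG 0.188 to 1.68 CPM.

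Transcript levels of the subunits, per length, spanned more than 2 orders of magnitude, from a mean of 238 FPKM for NDUFS5 to 0.814 FPKM for NDUFA9. FPKM here is CPM divided by the length of all annotated exons in kilobases. A gene with long annotated models therefore ranks lower per length than by CPM. NDUFS1 (12268 bp) measured 138 to 169 CPM and NDUFS5 (548 bp) 97.7 to 222 CPM. How far the annotation sets the order was not tested. In the membrane arm, the accessory subunits that face the intermembrane space through cysteine-paired helices were among the highest, with NDUFS5 at 238, NDUFB7 at 94.3, NDUFB10 at 67.7 and NDUFA8 at 44.4 FPKM. NDUFA1, needed early in membrane arm assembly, stood at 62.8, NDUFB11 at 54.9, NDUFB4 at 40.9, NDUFB3 at 40.0 and NDUFB9 at 35.8 FPKM. The middle of the membrane arm was held by NDUFC1 at 28.5, NDUFB6 at 27.2, NDUFB1 at 17.0, NDUFA3 at 16.1, NDUFB5 at 12.3, NDUFB2 at 11.8 and NDUFA10 at 11.7 FPKM. NDUFC2 (4.98), NDUFB8 (4.97), NDUFA11 (2.80) and NDUFA13 (1.36 FPKM) were the lowest of that arm.

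In the matrix arm, NDUFA6 (67.0 FPKM) and NDUFS6 (57.8) led. Among the core subunits, levels fell in the order NDUFV1 (34.4), NDUFS3 (24.8), NDUFS8 (15.7), NDUFS1 (12.6) and NDUFS7 (4.31 FPKM). The accessory subunits NDUFA12 (23.7), NDUFS4 (23.3), NDUFA2 (15.9), NDUFV3 (8.90) and NDUFA5 (6.58 FPKM) lay between, and NDUFA9, which binds a nucleotide near the junction of the arms, was lowest at 0.814 FPKM. NDUFA4 stood at 42.7 FPKM. The excluded rows lay at the same low end, with NDUFV2 at 0.833 and NDUFA7 at 0.688 FPKM. Of the 34 pairs of neighbours in the order of the 35 subunits, 30 had ranges over the 12 libraries that overlapped. Ranges separated only between NDUFS5 and NDUFB7, NDUFS8 and NDUFS1, NDUFS7 and NDUFA11, and NDUFA11 and NDUFA13.

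**Figure D1:**
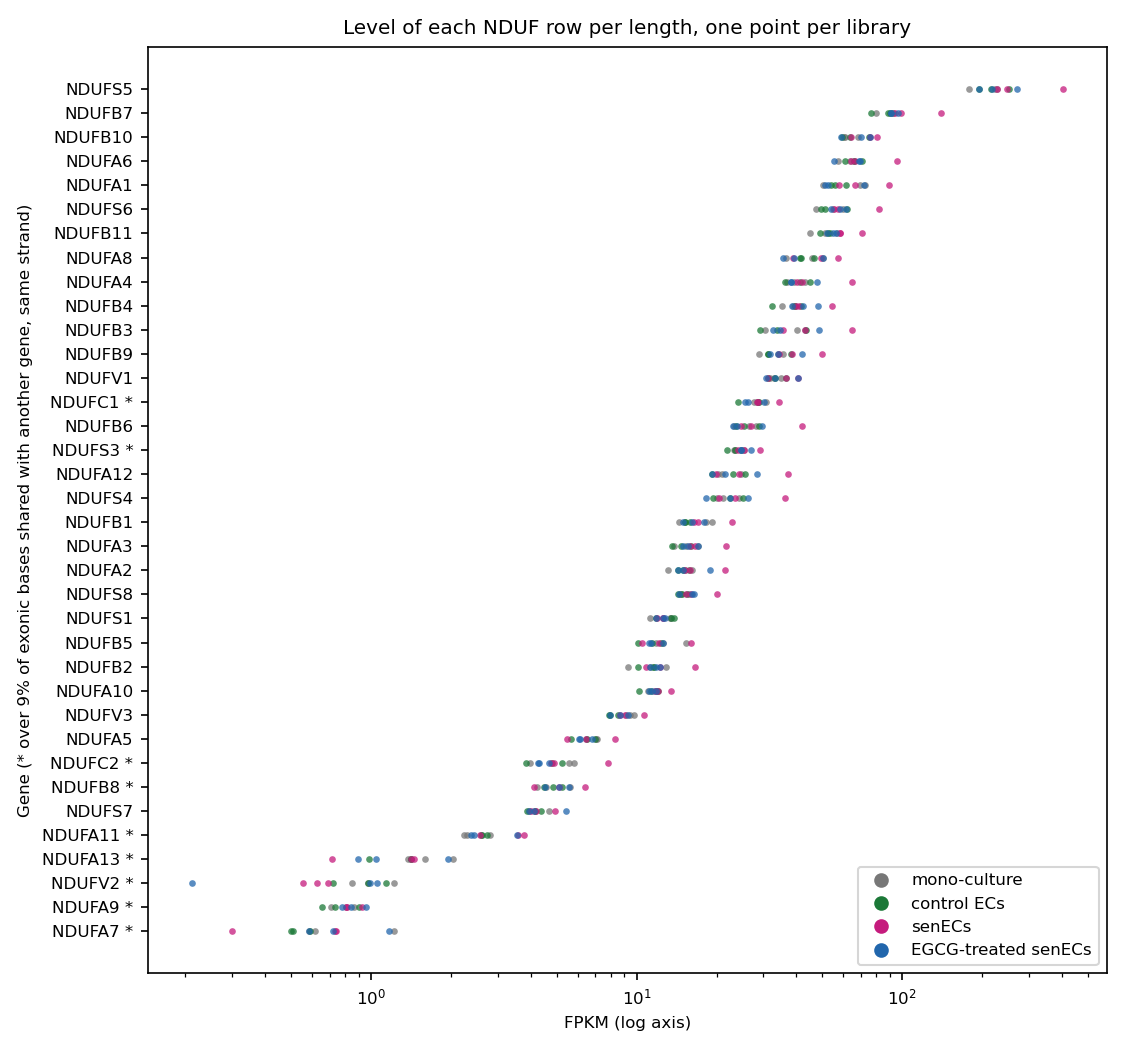
Level of the matched rows in the 12 libraries, as FPKM on a log axis, ordered by mean level and coloured by group. The levels run from NDUFS5 at a mean of 238 FPKM down to NDUFA7 at 0.688 FPKM, and the groups lie on top of each other within each row relative to the distance between rows.

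Many of the lowest levels fell on rows that share exons with another gene on the same strand. In GENCODE 29 on GRCh38, 9 of the 37 rows share over 9% of their exonic bases with another gene on the same strand, a limit set after the levels were seen: NDUFA7, NDUFA9, NDUFA11, NDUFA13, NDUFB8, NDUFC1, NDUFC2, NDUFS3 and NDUFV2. These 9 had a median of 2.80 FPKM and the other 28 a median of 30.8 FPKM, and 7 of the 9 lowest rows were among them. Since the limit was drawn with the levels known, these values only describe the rows. NDUFV1, just below the limit at 8.36%, stood at 34.4 FPKM. Of rows that share exons only on the opposite strand, NDUFS7 (49.12%) stood at 4.31 FPKM, but NDUFB11 (44.85%) at 54.9 and NDUFA1 (44.52%) at 62.8 FPKM. NDUFA13 shares 16.1% of its exonic bases with AC011448.1 (15 to 68 counts), while the partner of NDUFA11 at 9.65%, AC024592.3, was at 0 counts in all libraries. How reads in shared exons were counted is not given in the sources used here, so the levels of these 9 genes are uncertain, and part of such a gene's reads may be missing. Of 54 pseudogene rows of the family, 25 had any count and 6 reached 10 counts in some library. The highest was NDUFV2P1, with 23 to 46 counts against 9 to 70 for NDUFV2 itself, so reads of these near-identical copies could have been split between them.

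Within the libraries, the subunits moved together. The correlation of a subunit's log2 CPM (pseudocount 2) with the mean of the other subunits over the 12 libraries had a median of 0.843, and it exceeded 0.5 for 29 of the 35. For 13868 other genes with at least 10 counts in every library, the correlation with the subunit mean had a median of 0.065 and exceeded 0.5 in 22.5%. Without senEC replicate 5 the subunits' median fell to 0.584, with 24 above 0.5, against 0.051 and 14.0% for the other genes. These correlations are a description over 12 libraries that share groups and scaling. NDUFS5 (0.953) and NDUFB3 (0.945) followed the others most closely, and without senEC replicate 5 NDUFB3 (0.943) and NDUFB9 (0.891) did, with NDUFS5 at 0.839. The 6 subunits at or below 0.5 were NDUFA13 (-0.696), also known as GRIM-19 for its link to cell death, NDUFS1 (-0.077), NDUFA9 (0.265), NDUFV1 (0.367), NDUFA11 (0.407) and NDUFS7 (0.429). Without that library the values were -0.498 for NDUFA13, -0.152 for NDUFS1, 0.584 for NDUFA9, -0.232 for NDUFV1, -0.157 for NDUFA11 and 0.160 for NDUFS7. NDUFA13 (32 to 89 counts), NDUFA9 and NDUFA11 are among the rows with shared exons, so their correlations are as uncertain as their levels.

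Promoters are shown for NDUFA3, NDUFB4, NDUFB7 and NDUFA13, which hold motif matches. Their correlations with the other subunits were 0.913, 0.768, 0.910 and -0.696. NDUFB4 was at 0.462 without senEC replicate 5. Nuclear respiratory genes are known targets of NRF1, of the ETS factor GABP and of YY1. RefSeq promoters on GRCh38.p14, from 250 bases before to 50 after the start, were found for 29 of the 35 subunits. Capitals mark matches, on either strand, of the NRF1 motif (GCGCA and GCGC with any base between), the ETS motif (CCGGAAG) and the YY1 motif (AAGATGGC). NDUFA3 (chr19:54102605-54102904, plus strand) and NDUFB4 (chr3:120596086-120596385, plus strand) hold several NRF1 matches, and NDUFB7 (chr19:14572017-14572316, minus strand) and NDUFA13 (chr19:19515975-19516274, plus strand) each hold an ETS match.
NDUFA3: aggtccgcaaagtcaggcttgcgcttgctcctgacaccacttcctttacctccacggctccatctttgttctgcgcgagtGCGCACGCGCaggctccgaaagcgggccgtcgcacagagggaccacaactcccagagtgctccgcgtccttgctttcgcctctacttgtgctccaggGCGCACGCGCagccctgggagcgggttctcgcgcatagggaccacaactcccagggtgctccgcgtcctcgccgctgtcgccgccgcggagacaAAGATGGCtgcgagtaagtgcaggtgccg
NDUFB4: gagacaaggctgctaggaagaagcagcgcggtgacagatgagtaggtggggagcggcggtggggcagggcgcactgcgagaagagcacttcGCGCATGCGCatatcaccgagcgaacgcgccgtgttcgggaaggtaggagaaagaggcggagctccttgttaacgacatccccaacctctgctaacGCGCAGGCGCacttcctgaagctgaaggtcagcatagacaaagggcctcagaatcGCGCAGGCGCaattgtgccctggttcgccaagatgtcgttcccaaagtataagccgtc
NDUFB7: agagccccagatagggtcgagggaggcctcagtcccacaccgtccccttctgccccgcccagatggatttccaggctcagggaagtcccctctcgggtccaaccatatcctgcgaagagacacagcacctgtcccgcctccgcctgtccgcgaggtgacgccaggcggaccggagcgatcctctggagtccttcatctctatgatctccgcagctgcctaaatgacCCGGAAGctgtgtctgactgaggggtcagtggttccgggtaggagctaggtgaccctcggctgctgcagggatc
NDUFA13: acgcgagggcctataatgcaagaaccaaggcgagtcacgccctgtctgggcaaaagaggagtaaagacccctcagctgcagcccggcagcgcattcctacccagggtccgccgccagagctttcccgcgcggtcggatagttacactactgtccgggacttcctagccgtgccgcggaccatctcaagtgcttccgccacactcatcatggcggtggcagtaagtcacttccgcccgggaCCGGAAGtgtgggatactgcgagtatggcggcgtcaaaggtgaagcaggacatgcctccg

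The NRF1 letters were in the promoters of 6 of the 29 subunits (20.7%) and of 6.98% of 27305 genes with a promoter of the same length. The YY1 letters were also in 6 of 29 (20.7%), against 3.52% of all genes. The ETS letters were in 5 (17.2%), against 12.2%, and the GC box GGGCGG, bound by SP and KLF factors, was in 19 (65.5%), against 48.3%. The ETS and YY1 letters can overlap by AAG, and a promoter with both was counted for each. These matches describe sequence and do not show binding. NDUFB7 and NDUFA13, which both hold an ETS match and a GC box, had correlations with the other subunits of 0.910 and -0.696. NDUFA13 had 32 to 89 counts and shares 20.97% of its exonic bases on the same strand, so its correlation is uncertain. NDUFB3, at 0.945, held no NRF1, ETS or YY1 match.

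Between co-culture with senECs and with control ECs, no complex I subunit passed an adjusted p of 0.05 in either direction (edgeR's quasi-likelihood test with Benjamini-Hochberg adjustment, smallest adjusted p = 0.728). The share called among all 25873 genes tested was also 0% in both directions, and DESeq2 called 0 subunits and 0 genes. These fits had no term for replicate number. With such a term edgeR called 0 subunits and 0.591% of genes. With replicates 3 and 5 joined in that term it called 2 subunits and 1.04% of genes. The fold changes nevertheless leaned one way: 33 of the 35 subunits were higher with senECs, with a median log2 fold change of 0.22. The median was 0.03 over the 13903 genes with at least 10 counts in every library (well-counted genes), of which 56.6% were higher, and -0.01 over all genes tested. NDUFB7, NDUFB11, NDUFS5, NDUFA3, NDUFB3 and NDUFB1 had an unadjusted p under 0.05, 6 of 35. The shares were 6.61% of all genes tested and 7.97% of well-counted genes. In bulk RNA, a shift in every cell and a shift in a part of the cells cannot be told apart.

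**Figure D2:**
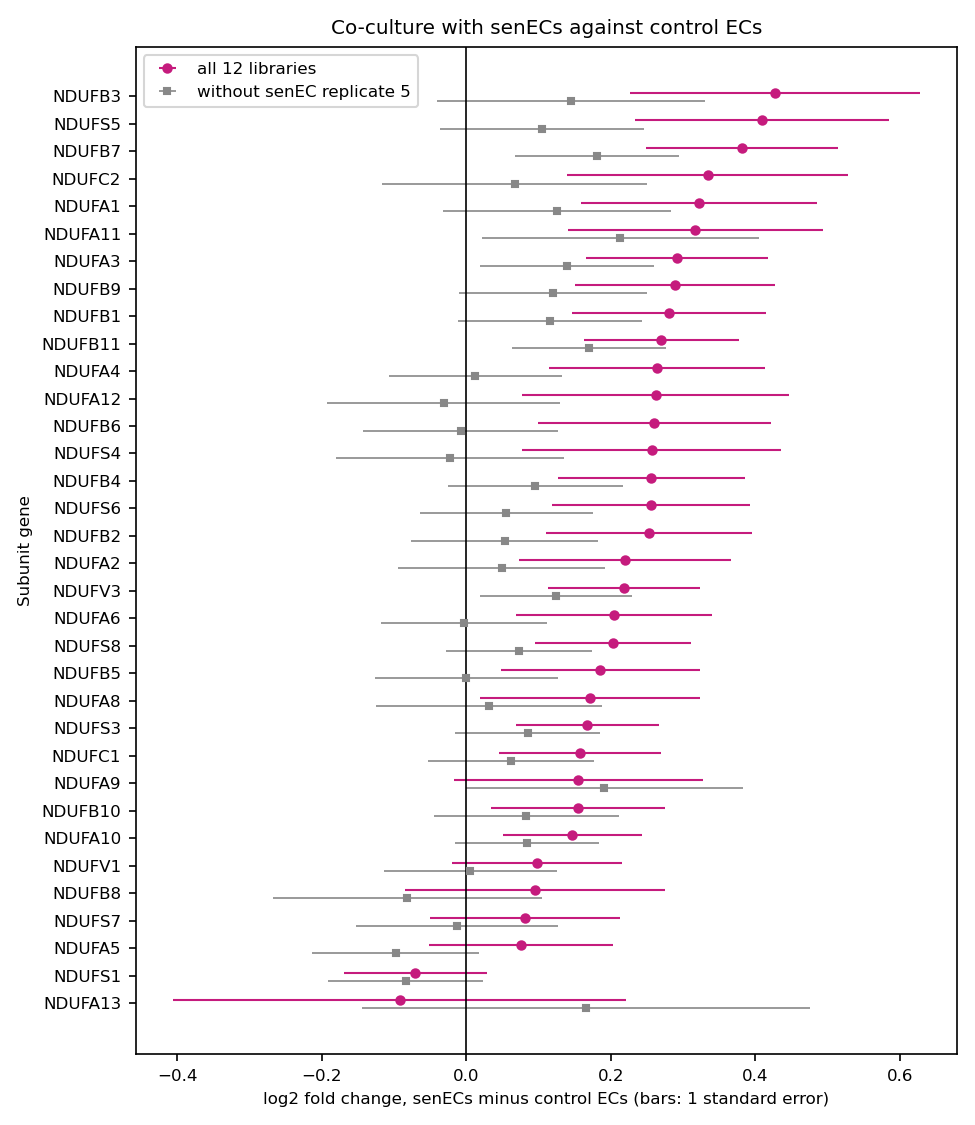
Log2 fold change of the subunits between co-culture with senECs and with control ECs (edgeR, bars are standard errors), with all libraries and without senEC replicate 5. With all libraries, all but NDUFS1 and NDUFA13 lie above 0, and without senEC replicate 5 most values lie closer to 0.

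The size of this lean changed with senEC replicate 5. Without it, the median log2 fold change of the subunits was 0.07, with 27 of 35 higher against 48.4% of all genes tested, and 0 had an unadjusted p under 0.05 against 2.80% of all genes. The number of subunits with an unadjusted p under 0.05 was 19 without senEC replicate 1 (11.6% of all genes), 12 without senEC replicate 2 (5.19%) and 1 without control EC replicate 2 (3.40%). Set side by side by replicate number, the subunits' median log2 difference between senECs and control ECs was 0.04 in replicate 1 (20 of 35 higher), 0.18 in replicate 2 (31 higher) and 0.41 for senEC replicate 5 against control EC replicate 3 (32 higher). Of well-counted genes, 55.2%, 56.2% and 54.5% were higher in these pairs, with medians of 0.02, 0.03 and 0.03. The membrane arm subunits had a median log2 fold change of 0.26 and the matrix arm 0.18, and without senEC replicate 5 these were 0.10 and 0.03. The nuclear core subunits had a median of 0.11, and of 0.03 without that library.

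**Figure D3:**
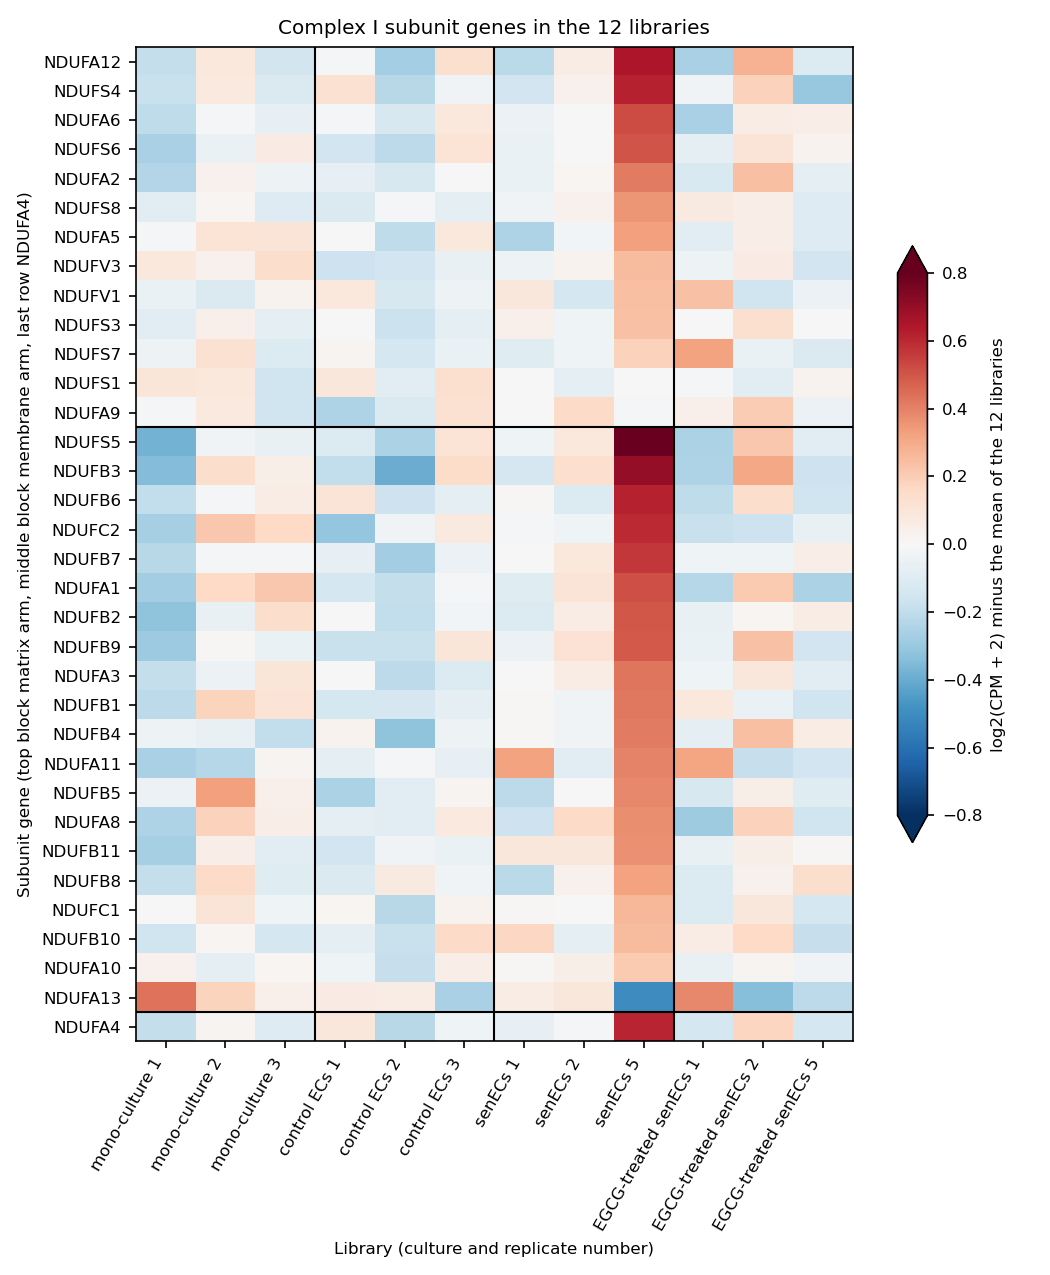
Log2 CPM of the subunits in each of the 12 libraries, as the difference from the subunit's mean over the libraries. The column of senEC replicate 5 is the highest for most of them, and NDUFA13 is lowest there.

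The 3 largest fold changes were those of membrane arm subunits. NDUFB3, an accessory subunit of the distal membrane arm (chromosome 2 from 201071433 to 201085750 on GRCh38), measured 39.1, 47.5 and 71.5 CPM with senECs, and 37.4, 32.3 and 48.0 CPM with control ECs. Its levels were 35.9, 53.8 and 38.2 CPM with EGCG-treated senECs and 33.4, 47.7 and 44.5 CPM in mono-culture. Only senEC replicate 5 lay above all other libraries, the groups overlapped, and the log2 fold change of senECs against control ECs was 0.43 (SE 0.20), or 0.15 without that library.

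NDUFS5, which sits on the intermembrane face of the membrane arm (chromosome 1 from 39026318 to 39034636), measured 124, 136 and 222 CPM with senECs and 118, 107 and 138 CPM with control ECs. With EGCG-treated senECs it measured 107, 148 and 119.7 CPM, and in mono-culture 97.7, 125 and 122 CPM. The senEC and control EC groups overlapped, with a log2 fold change of 0.41 (SE 0.18), and 0.10 without senEC replicate 5.

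NDUFB7, another subunit of the intermembrane face (chromosome 19 from 14566078 to 14572062), measured 49.8, 52.7 and 74.3 CPM with senECs and 47.2, 40.6 and 48.0 CPM with control ECs. With EGCG-treated senECs it measured 48.4, 48.2 and 51.4 CPM, and in mono-culture 42.3, 48.9 and 49.2 CPM. Here all senEC libraries lay above all control EC libraries and so, by a small margin, did all with EGCG-treated senECs. The log2 fold change of senECs against control ECs was 0.38 (SE 0.13, unadjusted p = 0.00963, adjusted p = 0.728 by edgeR), and 0.18 without senEC replicate 5. With NDUFB7, the subunits whose senEC libraries all exceeded the control EC libraries were NDUFB11, NDUFB1 and NDUFV3, 4 of 35, against 7.06% of well-counted genes. None of the 35 was lower in all senEC libraries, which 5.22% of well-counted genes were. NDUFB11 shares 44.85% of its exonic bases with RBM10 on the opposite strand, and whether strand was used in counting is not given in the sources used here. It measured 82.6, 82.5 and 100.3 CPM with senECs and 69.5, 76.1 and 74.5 CPM with control ECs, and its log2 fold change without senEC replicate 5 was 0.17.

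The lowest fold changes were those of NDUFA13, NDUFS1 and NDUFA5. NDUFA13 (chromosome 19 from 19515736 to 19529054), at 32 to 89 counts, measured 3.82, 3.93 and 1.93 CPM with senECs and 3.84, 3.82 and 2.67 CPM with control ECs. It measured 5.30, 2.41 and 2.84 CPM with EGCG-treated senECs and 5.53, 4.31 and 3.75 CPM in mono-culture. The library where most subunits were highest, senEC replicate 5, was thus the lowest for NDUFA13, and the log2 fold change against control ECs was -0.09 (SE 0.31), or 0.17 without it.

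NDUFA5, an accessory subunit next to the ubiquinone-reducing part of the matrix arm, measured 54.0, 63.5 and 81.4 CPM with senECs and 64.3, 55.8 and 68.6 CPM with control ECs. With EGCG-treated senECs it measured 60.6, 66.8 and 59.7 CPM, and in mono-culture 63.8, 69.6 and 69.2 CPM. Its senEC group held both the lowest and the highest value of all 12 libraries, with a log2 fold change of 0.08 (SE 0.13), and -0.10 without senEC replicate 5.

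The core subunits were next. NDUFV1, which binds NADH and the flavin, measured 185, 157 and 205 CPM with senECs and 184, 159 and 168 CPM with control ECs, for a log2 fold change of 0.10 (SE 0.12), and of 0.01 without senEC replicate 5. It measured 205, 155 and 168 CPM with EGCG-treated senECs and 167, 160.2 and 177 CPM in mono-culture, so that in all groups the spread between replicates covered the differences. NDUFV2, its iron-sulfur partner, lay below the minimum at 1.70, 1.5 and 1.87 CPM with senECs, 2.64, 3.08 and 1.95 with control ECs, 2.86, 0.572 and 2.68 with EGCG-treated senECs and 2.30, 2.64 and 3.31 in mono-culture. All 3 senEC libraries lay below all control EC and all mono-culture libraries. Of well-counted genes, which do not include NDUFV2, 5.22% lay below control ECs in that way and 9.39% below mono-culture. The log2 fold change of NDUFV2 between senECs and control ECs was -0.60 (SE 0.40, unadjusted p = 0.148, adjusted p = 0.756 by edgeR), and -0.67 without senEC replicate 5, on 9 to 70 counts.

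NDUFS1, the largest nuclear core subunit and carrier of iron-sulfur clusters (chromosome 2 from 206114817 to 206159603), measured 154, 147 and 155 CPM with senECs and 165, 145 and 169 CPM with control ECs. It measured 154, 146 and 158 CPM with EGCG-treated senECs and 166, 164 and 138 CPM in mono-culture. Its log2 fold change of senECs against control ECs was -0.07 (SE 0.10), or -0.08 without senEC replicate 5, and that library lay within the range of the other libraries.

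NDUFS3, a core subunit without a cluster of its own, measured 93.4, 88.5 and 107 CPM with senECs, 90.8, 80.4 and 86.1 with control ECs, 90.9, 99.2 and 91.0 with EGCG-treated senECs and 85.3, 93.3 and 86.4 in mono-culture. NDUFS7, which carries the last cluster before ubiquinone, measured 30.0, 31.5 and 37.0 CPM with senECs, 32.9, 29.1 and 31.1 with control ECs, 40.9, 31.1 and 29.7 with EGCG-treated senECs and 31.3, 35.3 and 29.7 in mono-culture. NDUFS8, another carrier of iron-sulfur clusters, measured 69.3, 72.4 and 90.9 CPM with senECs, 65.0, 69.8 and 67.2 with control ECs, 74.2, 73.4 and 65.5 with EGCG-treated senECs and 66.3, 71.3 and 65.7 in mono-culture. In each of these 3 genes the senEC and control EC groups overlapped, and the log2 fold changes were 0.17 (SE 0.10) for NDUFS3, 0.08 (SE 0.13) for NDUFS7 and 0.20 (SE 0.11) for NDUFS8. Without senEC replicate 5 they were 0.08, -0.01 and 0.07.

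The remaining genes were chosen for their levels. NDUFB10, next in level per length after NDUFS5 and NDUFB7, measured 81.1, 68.5 and 86.3 CPM with senECs, 68.4, 63.5 and 80.3 with control ECs, 75.1, 80.8 and 63.0 with EGCG-treated senECs and 64.4, 72.8 and 65.3 in mono-culture. NDUFA11, which helps to hold the membrane arm together and shares exons with AC024592.3, measured 17.2, 12.5 and 18.3 CPM with senECs, 12.6, 13.3 and 12.7 with control ECs, 17.1, 11.5 and 11.8 with EGCG-treated senECs and 10.8, 11.1 and 13.6 in mono-culture. NDUFA9 measured 8.41, 9.60 and 8.34 CPM with senECs, 6.76, 7.60 and 9.34 with control ECs, 8.71, 9.98 and 8.09 with EGCG-treated senECs and 8.33, 8.99 and 7.33 in mono-culture. The senEC and control EC groups of all 3 overlapped, with log2 fold changes of 0.15 (SE 0.12), 0.32 (SE 0.18) and 0.16 (SE 0.17) in that order, and 0.08, 0.21 and 0.19 without senEC replicate 5.

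Between co-culture with EGCG-treated senECs and with senECs, no subunit passed the test (edgeR, adjusted p = 1 for all 35), no gene of the whole table did (0% in both directions), and DESeq2 called 0. The subunits leaned the other way from the comparison above, which shares the senEC libraries: 31 of 35 were lower with EGCG-treated senECs, with a median log2 fold change of -0.16 against -0.01 over well-counted genes and 0.00 over all genes tested. None had an unadjusted p under 0.05, against 2.22% of all genes and 1.19% of well-counted genes. Without senEC replicate 1, 12 subunits did (4.40% of all genes), and without EGCG-treated senEC replicate 2, 6 did (3.65%). NDUFB11 and NDUFC2 were lower in all libraries with EGCG-treated senECs than in all with senECs, against 1.66% of well-counted genes, and none was higher in that way, against 1.93%. NDUFB11 measured 74.1, 80.2 and 77.9 CPM with EGCG-treated senECs and NDUFC2 11.3, 11.4 and 12.4 CPM, where senECs gave 12.9, 12.7 and 20.7 CPM of NDUFC2. Without senEC replicate 5 the median was -0.02, with 15 subunits higher and 20 lower. By replicate number, the subunits' median log2 difference was -0.03, 0.05 and -0.47 in replicates 1, 2 and 5. Over well-counted genes it was 0.00, 0.02 and -0.05.

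The log2 fold changes of single genes in that comparison were -0.36 (SE 0.18) for NDUFS5, -0.30 (SE 0.20) for NDUFB3 and -0.26 (SE 0.13) for NDUFB7, and these became -0.06, -0.02 and -0.05 without senEC replicate 5. Among the core subunits, NDUFS8 was at -0.13 (SE 0.11), NDUFV1 at -0.05 (SE 0.12), NDUFS3 at -0.04 (SE 0.10), NDUFS1 at 0.00 (SE 0.10) and NDUFS7 at 0.05 (SE 0.13). None of these core values reached 2 standard errors. Without senEC replicate 5 they were 0.00, 0.04, 0.04, 0.02 and 0.14 in the same order. Between EGCG-treated senECs and control ECs, no subunit was called either (0% of genes in both directions, and 0 by DESeq2). There 28 of 35 were higher, with a median log2 fold change of 0.05, where 56.7% of well-counted genes were higher, with a median of 0.03. No subunit had an unadjusted p under 0.05, against 4.55% of all genes and 3.71% of well-counted genes. The subunits' median was 0.00 with 18 higher without EGCG-treated senEC replicate 2, 0.02 with 20 higher without control EC replicate 2, and 0.10 with 32 and 30 higher without control EC replicate 3 and EGCG-treated senEC replicate 5. NDUFS3 and NDUFB7 were higher in all libraries with EGCG-treated senECs than in all with control ECs, against 4.94% of well-counted genes, and none was lower in that way, against 5.37%.

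Against mono-culture, no subunit was called in any co-culture by edgeR or DESeq2 with group as the only term. With a term for replicate number edgeR called 1 subunit with senECs (2.86%), against 2.74% of all genes. With replicates 3 and 5 joined in that term it called 4 (11.4%), against 5.44% of all genes. With control ECs and group as the only term, 0.0850% of genes were called higher and 0.0580% lower. Of well-counted genes, 49.5% were higher, with a median log2 fold change of -0.002. Of the subunits, 14 were higher and 21 lower, with a median of -0.01. Leaving out 1 library changed this balance: 6 were higher without mono-culture replicate 1 (median -0.07) and 8 without control EC replicate 3 (-0.06), while 20 were higher without mono-culture replicate 2 (0.01) and 19 without control EC replicate 2 (0.02). With all libraries, 6.52% of all genes and 7.98% of well-counted genes had an unadjusted p under 0.05. The only such subunit was NDUFV3, a small accessory subunit of the NADH-oxidising tip. It measured 49.9, 50.3 and 54.0 CPM with control ECs and 59.9, 57.7 and 62.2 CPM in mono-culture, so that the groups did not overlap (7.80% of well-counted genes were lower in that way and 7.42% higher), and its log2 fold change was -0.22 (SE 0.10).

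With senECs, 0.193% of genes were called higher than in mono-culture and 0.116% lower. Of well-counted genes, 54.1% were higher, with a median log2 fold change of 0.03. Of the 35 subunits, 30 were higher, with a median of 0.19. Without senEC replicate 5, 21 were higher, with a median of 0.04, against 47.9% and -0.01 over all genes tested. With all libraries, the smallest adjusted p of a subunit by edgeR was 0.321 (NDUFS5, log2 fold change 0.48, SE 0.18, and 0.18 without senEC replicate 5). NDUFS5, NDUFB11, NDUFB7, NDUFA11 and NDUFB9 had an unadjusted p under 0.05, 5 of 35 against 11.0% of all genes and 16.4% of well-counted genes. That number was 0 without senEC replicate 5 (6.19% of all genes) and 0 without mono-culture replicate 1 (8.55%), and 14 without senEC replicate 1 (14.5%) and 11 without senEC replicate 2 (9.43%). NDUFB11, NDUFB4 and NDUFB7 were higher in all senEC than in all mono-culture libraries, 3 of 35 against 12.5% of well-counted genes, and none was lower in that way, against 9.39%. With EGCG-treated senECs, 0.124% of genes were called higher and 0.0889% lower. Of well-counted genes, 53.2% were higher, with a median log2 fold change of 0.02. Of the 35 subunits, 22 were higher, with a median of 0.06. No subunit had an unadjusted p under 0.05, against 8.58% of all genes and 11.4% of well-counted genes. The subunits' median changed sign, to -0.02 with 15 higher, without EGCG-treated senEC replicate 2. It was 0.01 with 19 higher without mono-culture replicate 1 and 0.11 with 25 higher without mono-culture replicate 2. All 35 overlapped with mono-culture there, where 8.98% of well-counted genes were higher and 8.70% lower without overlap.

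The height of senEC replicate 5 was shared widely among the subunits. It was the highest of the 12 libraries for 31 of 35, against 22.5% of the other well-counted genes, while the lowest library was control EC replicate 2 for 10 subunits and mono-culture replicate 1 for 9. The summed level of the 35 subunits was 3133 CPM there, against 2103 to 2518 CPM in the other 11 libraries. The median replicate SD of the subunits on the log2 scale was 0.269 with senECs and 0.120 to 0.140 in the other groups, where well-counted genes had 0.150 and 0.126 to 0.149. The difference of this library from the mean of the other 11 also went with gene length. NDUFS5, with 548 bp of exons, stood 0.86 above on the log2 scale and NDUFB7 (531 bp) 0.62 above, whereas NDUFA9 (10391 bp) stood at -0.01.

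**Figure D4:**
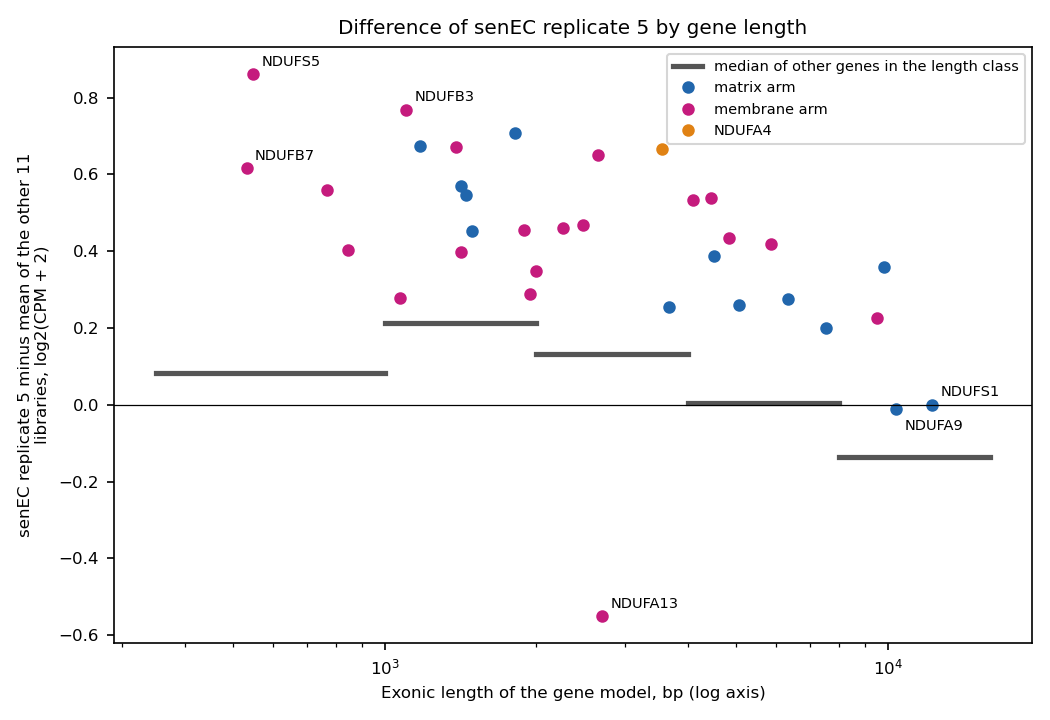
Difference in log2 CPM between senEC replicate 5 and the mean of the other 11 libraries, for the subunits, against the length of its annotated exons (log axis), with the median of other genes in classes of length. The subunits fall from 0.86 for NDUFS5 (548 bp) to -0.01 for NDUFA9 (10391 bp), with NDUFA13 apart at -0.55, and all but NDUFA13 lie above the median of the other genes of their length class.

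Other genes also differed by length class, with medians that fell from 1000 bp up and a lower median below 1000 bp. Below 1000 bp, the median difference was 0.59 for 4 subunits and 0.08 for 640 other genes without ribosomal proteins. From 1000 to below 2000 bp, the median difference was 0.50 for 12 subunits and 0.21 for 1157 other genes. From 2000 to below 4000 bp it was 0.46 for 7 subunits and 0.13 for 3652 other genes. From 4000 to below 8000 bp it was 0.40 for 8 subunits and 0.00 for 5525 other genes, and from 8000 bp up it was 0.11 for 4 subunits and -0.14 for 2766 other genes. Across the 35 subunits the correlation of the difference with log2 length was -0.525 (Spearman's rho -0.636) in senEC replicate 5, and it was 0.544 in mono-culture replicate 1, where the subunits' median difference was -0.21. Across 13818 other genes, ribosomal proteins included, it had the same sign, at -0.297 (rho -0.346) in senEC replicate 5 and 0.187 in mono-culture replicate 1. In EGCG-treated senEC replicate 1 it was 0.462 for the subunits and 0.017 for the other genes. The signs differed in EGCG-treated senEC replicate 5 (0.125 and -0.002), control EC replicate 3 (-0.043 and 0.073) and mono-culture replicate 3 (-0.048 and 0.049). In the remaining libraries the signs were the same. These correlations are across genes, which are not independent replicates. The part of length, and of what sets it in a library, in the difference between groups was not tested.

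Genes of related function were read beside the nuclear subunits. Between senECs and control ECs, none of the genes of the following lists was called by edgeR. All 7 MT-ND genes, the mitochondrially encoded core of complex I, were higher with senECs, with a median log2 fold change of 0.27, and the median was 0.15 with all 7 higher without senEC replicate 5. MT-ND2 (0.28), MT-ND4 (0.31) and MT-ND6 (0.31) were higher with no overlap of the groups, as were 7.06% of well-counted genes. The groups of the other MT-ND genes overlapped. Of 19 complex I assembly factors, 17 were higher (median 0.12). NDUFAF1, an early membrane arm assembly factor, at 0.40 (SE 0.15), DMAC2 (0.15) and TMEM70 (0.20) were higher with no overlap of the groups. NUBPL (-0.16) was lower in that way. Of well-counted genes, 7.06% were higher and 5.22% lower without overlap. The groups of NDUFAF8, at 0.41 (SE 0.18), overlapped. Without senEC replicate 5, 14 of 19 were higher, with a median of 0.03. The 38 nuclear subunits of complexes II to V were all higher (median 0.25, and 0.09 with 34 higher without that library), as were the 69 cytosolic ribosomal protein genes (median 0.25, and 0.03 with 48 higher). Of 12 regulators of mitochondrial biogenesis, 6 were higher and 6 lower, with a median of 0.00. Without senEC replicate 5, 5 were higher and 7 lower, with a median of -0.03. The largest shift among them with all libraries was that of PPARGC1B, at -0.43 (SE 0.20), with overlapping groups.

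**Figure D5:**
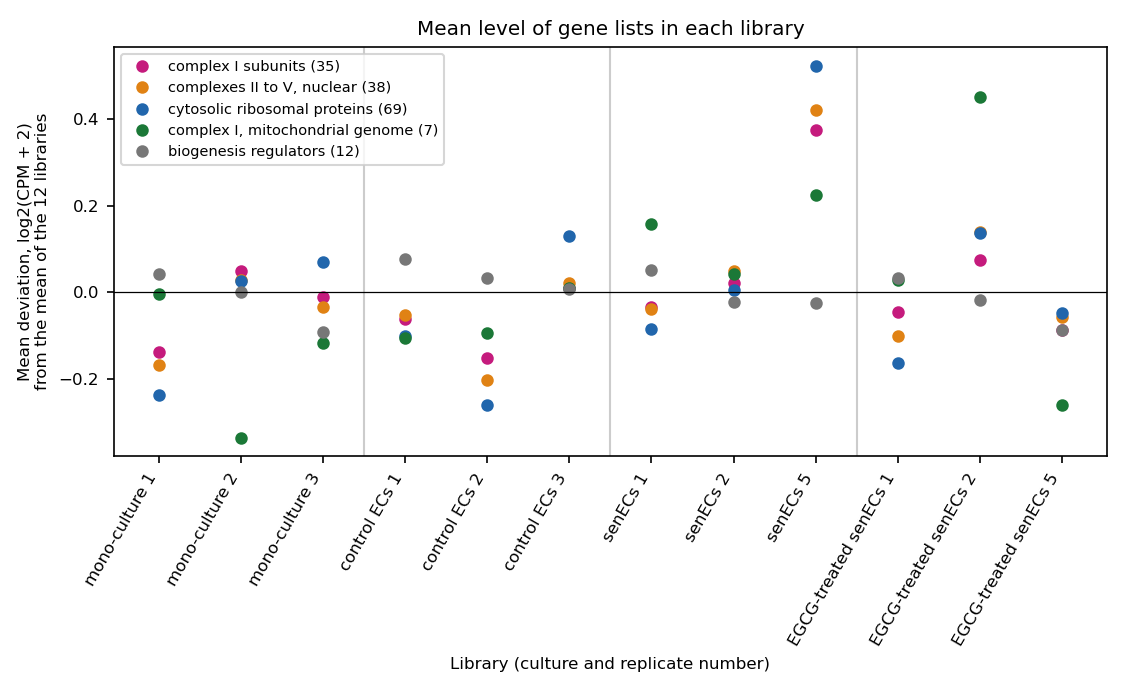
Mean deviation of each gene list from its mean over the 12 libraries, in log2 CPM, for each library. The complex I subunits reach 0.38 in senEC replicate 5 and lie between -0.15 and 0.07 elsewhere, the complex II to V and ribosomal lists are also highest there, and the MT-ND genes are highest in EGCG-treated senEC replicate 2 (0.45).

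Across the 12 libraries, the mean deviation of the complex I subunits correlated with that of the complex II to V subunits at r = 0.982 and of the ribosomal protein genes at r = 0.953. The values were 0.924 for the assembly factors, 0.437 for the MT-ND genes and -0.272 for the regulators. Without senEC replicate 5 they were 0.949, 0.880, 0.676, 0.313 and -0.290 in the same order. These values too are a description over libraries that share groups and scaling. Their mean deviation was -0.14, 0.05 and -0.01 in mono-culture, -0.06, -0.15 and 0.01 with control ECs, -0.03, 0.02 and 0.38 with senECs and -0.05, 0.07 and -0.09 with EGCG-treated senECs. Apart from senEC replicate 5, the 4 groups overlapped.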

How the data were processed

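The deposited values are unnormalized whole read counts for each gene symbol, which the authors made from reads aligned with HISAT2 to hg38 per the labels. The counting program and annotation are not given in the sources used here. The 12 described libraries were grouped by their labels. A further 4 columns match no described sample and were not used. The 25873 genes whose 12 counts summed to 10 or more were tested with edgeR 4.0.16 (quasi-likelihood, TMM, Benjamini-Hochberg adjustment over all of them, threshold 0.05) in R 4.3.3, with group as the only term and all 12 libraries in the fit. With 3 libraries per group an exact permutation test cannot go below p = 0.1. Standard errors were obtained as the log2 fold change over the root of the F statistic. CPM uses TMM library sizes, log2 CPM adds 2, and FPKM divides CPM by the exonic length in GENCODE 29.

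The complex I subunits, the other gene lists and the markers were chosen with earlier results of these data known. Values in each library are given for the nuclear core subunits, the 3 highest and 3 lowest fold changes of senECs against control ECs and the 3 highest and 3 lowest levels. The values of 1 subunit are not reported here, although it is part of all counts and medians. Other genes named were chosen after their values were seen. The alternatives were DESeq2 1.42.0, its size factors, no TMM factors, 3 other filters, the 6 libraries compared alone, replicate blocks and each library left out. The fits were tested on simulated data with 200 planted changes of 2-fold and no replicate effect. There edgeR recovered 159 with 9 false calls, and DESeq2 164 with 23. The largest fold change of a subunit between senECs and control ECs was 1.34 (NDUFB3). The simulation therefore cannot tell whether changes of that size would be called. Sequences, levels and plots were handled in Python 3.11.15 (pandas 2.3.3, numpy 2.4.6, matplotlib 3.10.9).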

Additional observations from a re-analysis of the deposited data

How the results depend on the processing

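The numbers of complex I subunits called stayed at 0 in all 6 comparisons under DESeq2, DESeq2 size factors, library totals without TMM factors, edgeR's own filter, a filter on 10 counts in each library, a fit to the 6 libraries of a comparison and each library left out in turn. With all genes with at least 1 count, 1 subunit (NDUFS5, adjusted p = 0.00282 by edgeR) was called between senECs and mono-culture, where edgeR called 368 genes higher and 220 lower in place of 50 and 30. DESeq2 called 199 and 148 there, 60 and 60 in place of 22 and 15 for control ECs, and 129 and 101 in place of 32 and 23 for EGCG-treated senECs, all against mono-culture. The filter on 1 count also gave 43 genes higher and 71 lower between senECs and control ECs, 9 and 5 between EGCG-treated senECs and senECs, and 16 and 27 between EGCG-treated senECs and control ECs, in place of 0.

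Replicate numbers were not taken as pairs, since the deviations of same-numbered libraries from their group means correlated at only 0.028 to 0.088 for replicate 2 in 4 of the 6 comparisons, against 0.244 to 0.548 in the other same-numbered pairs, and not every library correlated best with its own number. Replicate 5 of senECs and EGCG-treated senECs correlated at 0.351 to 0.515 with replicate 3 of control ECs and mono-culture. With a replicate block, 1 of 35 subunits was called between senECs and mono-culture (NDUFS5, log2 fold change 0.40), where 2.74% of all genes were. With the block and replicates 3 and 5 joined, 4 of 35 were (NDUFB7, NDUFB9, NDUFB11 and NDUFS5, at 0.32, 0.31, 0.29 and 0.46), against 5.44% of all genes, and 2 were between senECs and control ECs (NDUFS5 at 0.38, NDUFB7 at 0.37), against 1.04%. Neither block called a subunit elsewhere. Over all genes, edgeR with the block called 63 higher and 90 lower between senECs and control ECs, 8 and 5 between EGCG-treated senECs and senECs, and 16 and 18 between EGCG-treated senECs and control ECs, in place of 0. With replicates 3 and 5 joined these were 127 and 141, 0 and 1, and 30 and 30. Against mono-culture, the block called 224 and 245 for control ECs, 405 and 304 for senECs, and 259 and 165 for EGCG-treated senECs, and the joined block 195 and 205, 827 and 580, and 444 and 338. The block also moved the median of the subunits between EGCG-treated senECs and mono-culture from 0.0594 to -0.0044, with 17 of 35 higher.

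Leaving out 1 library at a time gave a median log2 fold change of the subunits from 0.067 to 0.31 between senECs and control ECs, -0.24 to -0.019 between EGCG-treated senECs and senECs, and 0.038 to 0.29 between senECs and mono-culture, the values nearest 0 being those without senEC replicate 5 and the value of -0.24 that without senEC replicate 1. The range was 0.0046 to 0.096 between EGCG-treated senECs and control ECs, -0.022 to 0.11 between EGCG-treated senECs and mono-culture, and -0.068 to 0.017 between control ECs and mono-culture. Signs of single genes changed as well. Between senECs and control ECs the range was -0.013 to 0.14 for NDUFS7, -0.25 to 0.17 for NDUFA13 and -0.098 to 0.20 for NDUFA5. Between EGCG-treated senECs and senECs it was -0.021 to 0.036 for NDUFS1, -0.097 to 0.044 for NDUFS3, -0.11 to 0.14 for NDUFS7, -0.20 to 0.0041 for NDUFS8, -0.17 to 0.040 for NDUFV1, -0.024 to 0.71 for NDUFV2, -0.30 to 0.32 for NDUFA13, -0.22 to 0.086 for NDUFA5 and -0.065 to 0.090 for NDUFA9. NDUFS1 there was also at -0.01 with all genes with at least 1 count. The causes were not tested.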
